A study of Homo sapiens and Mus musculus with 20 samples.

Results

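In the ChIP-seq list of full-length Satb1, 388 of 22877 peaks (1.70%) held 7 or more exact copies of the Satb1 consensus within 400 bp of hg19 centered on the peak midpoint. The search used the degenerate word YTAWTAR, in which the first base is a pyrimidine, the fourth base A or T and the last a purine. It is its own reverse complement, so a search of one strand covers both, and overlapping matches were counted. At least 1 match lay in 22096 of the 22877 peaks (96.6%). These 388 peaks are called dense sites here. Their choice used sequence and membership in the list, and no value of binding strength, construct or accessibility.

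All cells were MCF10A, an established human mammary epithelial line that lacks native Satb1, stably transduced with a lentiviral vector for the ChIP-seq and sorted for the integrated construct. The constructs carried eGFP at the C terminus under a cumate switch promoter, and chromatin was precipitated with a GFP antibody. There was 1 peak list each for full-length Satb1, for Satb1 lacking the homeodomain (∆HD), for the N terminus with only the first CUT domain (N-C1), and for full-length Satb1 in cells treated for 2 h with camptothecin, a topoisomerase I inhibitor, or with ICRF-193, a topoisomerase II inhibitor. ATAC-seq, in which a transposase cuts accessible DNA, gave 1 list for native cells and 1 for cells expressing Satb1. Expression was not measured in these files, so the identity of the line was not checked here.

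Satb1 is a chromatin organizer best known from thymocytes, where it binds A/T-rich DNA. It forms oligomers through its N terminus and touches DNA through a pair of CUT domains and a homeodomain. Sites where several consensus copies lie close together are therefore of interest for how a multidomain, oligomeric protein settles on chromatin.

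Printed sequences show the kinds of site that carry the results: members of the largest families of near copies, an isolated strong site, a very dense run of matches, a tandem array, a site with regular spacing, a strong site missed by ∆HD and the weakest site. Capitals mark every consensus match and each line gives the stretch of the 400 bp window with the most matches.
Copy family 1, typical member near UNC93B1 (hg19 chr11:67752639-67752938, plus strand): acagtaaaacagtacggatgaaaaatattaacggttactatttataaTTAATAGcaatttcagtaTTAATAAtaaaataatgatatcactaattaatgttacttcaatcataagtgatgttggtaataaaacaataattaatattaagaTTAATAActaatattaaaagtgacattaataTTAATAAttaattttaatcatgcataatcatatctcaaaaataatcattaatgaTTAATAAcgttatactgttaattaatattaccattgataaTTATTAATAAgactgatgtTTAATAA
Copy family 2, typical member near MEIG1 (hg19 chr10:15036927-15037226, plus strand): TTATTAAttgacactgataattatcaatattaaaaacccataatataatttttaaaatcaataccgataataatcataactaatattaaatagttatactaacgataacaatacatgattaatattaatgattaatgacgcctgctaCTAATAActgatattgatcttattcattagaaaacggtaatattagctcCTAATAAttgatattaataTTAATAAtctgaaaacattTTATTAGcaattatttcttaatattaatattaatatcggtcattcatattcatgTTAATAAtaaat
A1CF intron, highest fold enrichment in unique sequence (hg19 chr10:52621233-52621532, plus strand): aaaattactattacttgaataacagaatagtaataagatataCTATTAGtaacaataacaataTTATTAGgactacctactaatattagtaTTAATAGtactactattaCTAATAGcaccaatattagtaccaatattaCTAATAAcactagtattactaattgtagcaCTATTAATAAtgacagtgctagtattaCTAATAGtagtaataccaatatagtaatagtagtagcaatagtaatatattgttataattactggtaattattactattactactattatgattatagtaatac
Most matches printed, 47.9 kb from CEP295 (hg19 chr11:93346933-93347232, plus strand): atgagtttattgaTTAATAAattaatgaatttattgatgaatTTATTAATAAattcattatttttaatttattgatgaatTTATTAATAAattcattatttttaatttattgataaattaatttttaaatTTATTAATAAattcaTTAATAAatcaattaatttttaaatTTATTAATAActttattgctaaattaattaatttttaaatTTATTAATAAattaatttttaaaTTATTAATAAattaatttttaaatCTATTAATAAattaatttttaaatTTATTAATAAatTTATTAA
Tandem array 12.3 kb from HRAS (hg19 chr11:519656-519855, plus strand): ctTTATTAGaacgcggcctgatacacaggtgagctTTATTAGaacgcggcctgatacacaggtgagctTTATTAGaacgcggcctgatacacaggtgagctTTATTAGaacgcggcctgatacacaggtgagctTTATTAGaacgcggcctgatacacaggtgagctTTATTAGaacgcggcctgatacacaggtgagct
EFCAB11 intron, most neighbours 8 to 12 bp apart (hg19 chr14:90411171-90411470, plus strand): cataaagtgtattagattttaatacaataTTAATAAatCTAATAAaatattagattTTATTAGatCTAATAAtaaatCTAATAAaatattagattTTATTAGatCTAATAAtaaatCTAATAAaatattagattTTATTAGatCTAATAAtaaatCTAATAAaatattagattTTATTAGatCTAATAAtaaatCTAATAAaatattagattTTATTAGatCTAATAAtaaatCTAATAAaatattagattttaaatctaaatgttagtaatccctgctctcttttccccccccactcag
Strongest site absent from the ∆HD list (hg19 chr15:97600207-97600506, plus strand): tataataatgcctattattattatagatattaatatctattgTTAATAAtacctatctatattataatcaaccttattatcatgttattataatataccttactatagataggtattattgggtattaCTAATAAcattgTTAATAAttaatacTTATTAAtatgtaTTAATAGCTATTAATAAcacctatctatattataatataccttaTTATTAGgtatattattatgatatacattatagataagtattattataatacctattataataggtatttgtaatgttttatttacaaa
TEX9 intron, lowest fold enrichment (hg19 chr15:56705382-56705581, plus strand): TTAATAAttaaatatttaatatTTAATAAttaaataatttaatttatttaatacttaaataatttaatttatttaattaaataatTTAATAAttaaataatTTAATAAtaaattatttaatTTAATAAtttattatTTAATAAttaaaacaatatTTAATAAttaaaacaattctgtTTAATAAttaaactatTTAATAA

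Dense runs took several forms in these sequences. The site near CEP295 repeated the 10-letter word TTATTAATAA, which holds a pair of consensus matches sharing 4 bases, in runs of A and T. The array near HRAS, a GTPase of the Ras pathway, carried 1 TTATTAG in every 33 bp unit. In the EFCAB11 intron, TTATTAG and CTAATAA recurred in a fixed order. The A1CF intron, in a gene for an RNA editing cofactor, held a mixture of consensus words in other A/T-rich sequence.

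Of the 388 sites, 140 (36.1%) held exactly 7 matches and 132 (34.0%) held 10 or more. The largest number was 25, at a site on chromosome 8 (37174422 to 37175273) that lay 379 kb from ZNF703. It was followed by 22 matches at the site 47.9 kb from CEP295 and 22 in an intron of RUNX1, a transcription factor of blood formation. Next came 21 near TBC1D1 on chromosome 4 and 21 on chromosome 6 near RFPL4B. Just inside the threshold, peaks with 7 matches had a median fold enrichment of 22.9 (quartiles 13.9 and 35.6, n = 140). Just outside it, peaks with 6 matches had 16 (quartiles 8.83 and 24.4, n = 405). Fold enrichment here is the deposited pileup of each peak over its local background. It has no unit, and values of different lists are set side by side without ratios because each list was scaled on its own.

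The dense sites were the strongest class of the full-length list. Their median fold enrichment was 32.3 (95% interval 29 to 34.7), and single sites ranged from 4.72 to 59.0. Peaks with fewer matches had medians of 6.78 at 0 matches, 6.64 at 1 to 2, 7.60 at 3 to 4 and 11.7 at 5 to 6. Within the dense sites the median rose from 22.9 at 7 matches to 33.5 at 8 to 9 and 42.5 at 10 to 12 (interval 35.7 to 47.2). At 13 or more it was 44.6, with an interval of 32.9 to 48.1 that overlapped the previous class. Of the 100 strongest full-length peaks, 76 were dense sites, and dense sites lay at a median percentile of 97.8 of the list. Their peaks were also wider, with a median of 713.5 bp against 312 bp for all other peaks. These intervals are for the median over peaks of 1 list, and there is no replicate list to give an experimental error. They treat peaks as independent, although 90 dense sites lie in families of near copies described below.

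The site with the highest value lay on chromosome 9 (70931006 to 70932240), 11.6 kb from FOXD4L3, a forkhead transcription factor gene. It reached 59.0 in the full-length list, 52.1 in ∆HD, 71.3 in N-C1, 78.3 after camptothecin and 86.6 after ICRF-193. No 75-base word of its window was unique in hg19, so reads of that length could not be placed there without ambiguity. The A1CF intron reached 56.8, 55.8, 78.6, 67.4 and 72.7 in the same order of lists, with every 75-base word unique. High values were thus present both in copied and in unique DNA. The 3 weakest sites were in an intron of TEX9 (4.72), near ETDB on chromosome X (4.86) and in an intron of LRP1B (5.0). At the TEX9 site no ∆HD or N-C1 peak was listed, while the lists after camptothecin and ICRF-193 gave 14.1 and 16.7. The LRP1B site, of 69.0% A/T, had 9.15 in ∆HD, 6.74 in N-C1, 5.92 after camptothecin and 7.72 after ICRF-193.

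**Figure D1:**
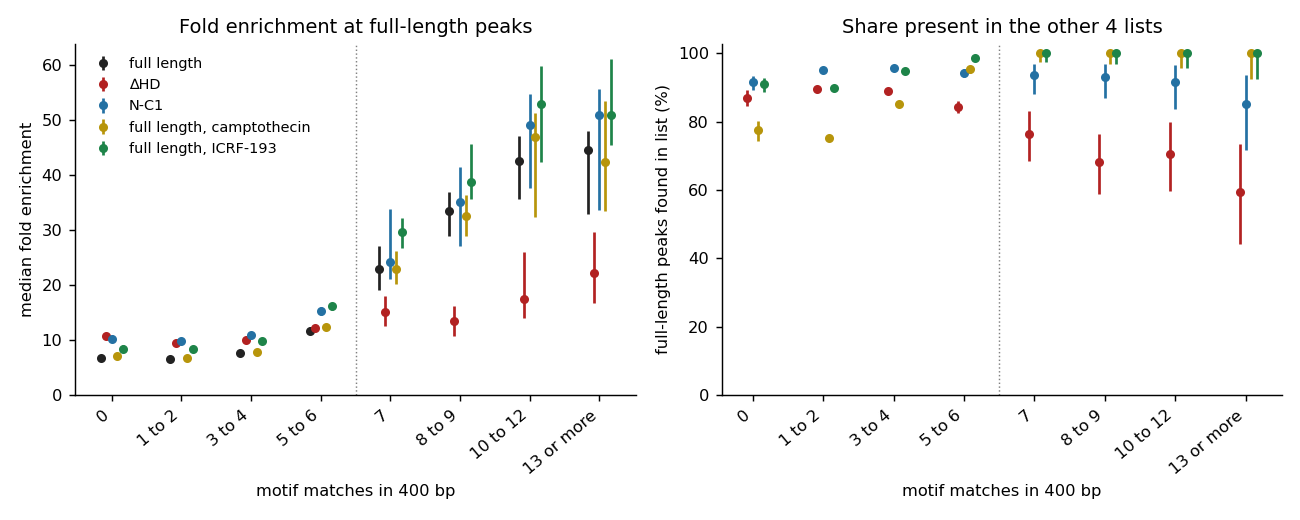
Left, median fold enrichment with 95% order-statistic intervals at full-length peaks by number of matches, in each of 5 lists. Right, share of full-length peaks present in each other list, with 95% exact binomial intervals. The dotted line marks the threshold of 7 matches, beyond which the share in the ∆HD list is lower and those after camptothecin and ICRF-193 are 100%.

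Taken over all A/T contents, the ∆HD list held a smaller share of the dense sites than of any other class. This order was not kept at like A/T content, as given below. Removing the homeodomain leaves both CUT domains, and 274 of the 388 sites (70.6%, interval 65.8 to 75.1) overlapped a ∆HD peak by at least 1 bp. Over all 22877 full-length peaks the share was 88.6%. By class it was 87.1% at 0 matches, 89.6% at 1 to 2, 89.2% at 3 to 4 and 84.5% (82.7 to 86.1) at 5 to 6. Within the dense sites it was 76.4% at 7 matches and 59.6% at 13 or more (interval 44.3 to 73.6). The ∆HD list was the larger list, with 50537 peaks. A peak that is not listed is not shown to be unbound, because a list holds only signal above the calling threshold.

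At the 274 sites found, the median ∆HD value was 16 (interval 14.4 to 17.8), at a median percentile of 93.4 of the ∆HD list. Of the 100 strongest ∆HD peaks, 21 overlapped a dense site, against 76 in the full-length list. The sites missing from ∆HD were weaker in the full-length list than those found, with medians of 17.5 and 39.5, and richer in A/T, with medians of 87.5% and 79.5% in the central 200 bp. Among dense sites with a full-length value from 10 to below 20, 29 of 78 (37.2%) had a ∆HD peak, against 91.5% of 4710 peaks of that strength with fewer matches. From 20 to below 30 the shares were 47.5% and 89.6%, and from 40 upward 99.2% of 133 and 95.2% of 104. These shares by strength were not matched for A/T content.

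A/T content and match number are tied, since the consensus words consist largely of A and T. Dense sites were therefore split into 4 groups of similar size by A/T content. Under 76% A/T, 91.5% of 94 dense sites had a ∆HD peak, and 95% of peaks with 5 to 6 matches did. At 84.5% A/T or more, 29.7% of 101 dense sites did (interval 21.0 to 39.6), against 15% of peaks with 5 to 6 matches (8.0 to 24.7). Between 81% and 84.5% the shares were 81.0% of 105 dense sites (72.1 to 88) and 41.4% of 116 peaks with 5 to 6 matches (32.3 to 50.9). About as many of those dense sites belonged to 2 families of near-copied sequence as did not, and for the 55 others the share was 65.5% (51.4 to 77.8). Between 76% and 81% the shares were 83.0% and 82.8%. Of all peaks with fewer than 7 matches, 94.7% had a ∆HD peak under 76% A/T and 79.8% between 76% and 81%. Between 81% and 84.5% 40.7% did, and at 84.5% or more 6.57%. From 81% A/T upward the dense share was the higher one, and below 81% the dense intervals covered the other shares. Dense sites had higher full-length values than peaks with 5 to 6 matches at each A/T content. The medians were 26.4 and 10.2 under 76%, and 22 and 15.6 at 84.5% or more. The part of A/T content in the missing peaks was not tested.

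The strongest site missing from ∆HD lay on chromosome 15 (97599967 to 97600746), with 717 kb to NR2F2, a nuclear receptor gene. Its values were 43.6 for full length, 8.65 for N-C1, 39.2 after camptothecin and 49.7 after ICRF-193. The next, on chromosome 11 (106050465 to 106051147), had 39.8, 18.9, 36.5 and 51.2, and one 844 kb from CDH9, a cadherin gene, had 39.0, 23.4, 35.2 and 43.8. All windows of these 3 sites consisted of unique 75-base words. Other dense sites had a higher value in ∆HD than in full length. The array near HRAS had 34.7 for full length and 67.5 for ∆HD. An intron of TWIST2, an inducer of the epithelial to mesenchymal transition, had 43.9 and 70.7. At these sites 0% and 14.4% of the 75-base words were unique. The same order was also seen where all 75-base words were unique. Examples were introns of GPC6 (55.7 for full length and 77.0 for ∆HD) and KDM5A (54.3 and 65.3). The A1CF intron, also unique, did not have it (56.8 and 55.8). Peaks with fewer than 7 matches had this order in their medians, with 7.19 in full length and 9.91 at the 19991 found in ∆HD. Each list was scaled on its own, so the order is no measure of relative binding.

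**Figure D2:**
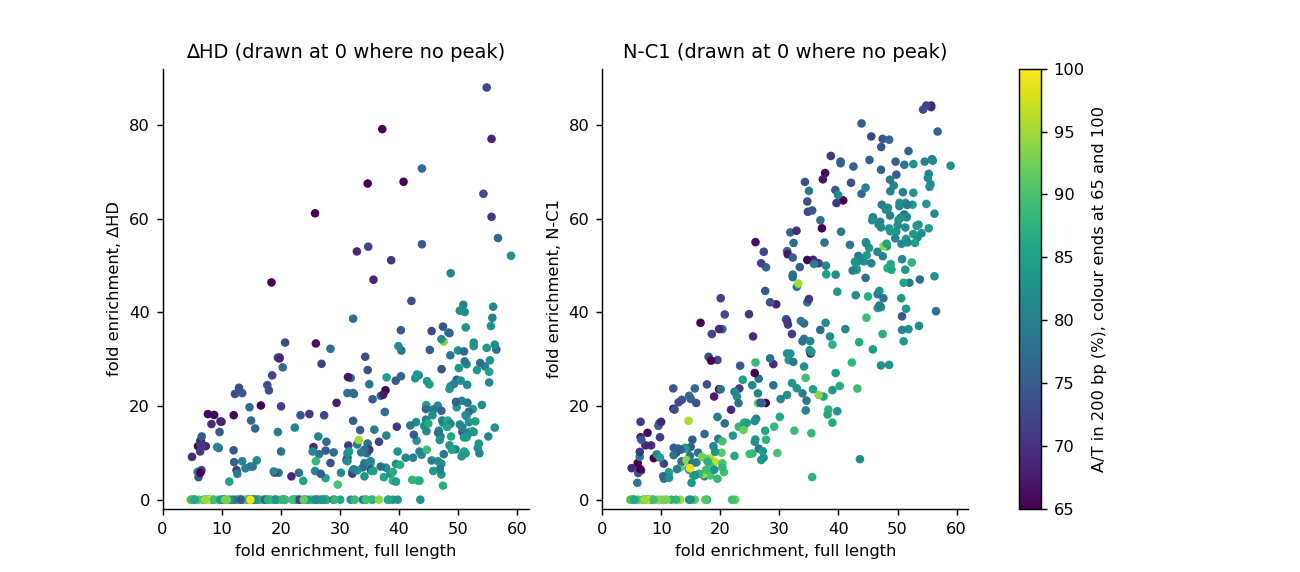
Fold enrichment of each of the 388 dense sites in the ∆HD list (left) and the N-C1 list (right) against the full-length list, colored by A/T content of the central 200 bp. Sites with no listed peak are drawn at 0. Of the 101 sites with 84.5% A/T or more, 30 have a ∆HD peak and 74 an N-C1 peak.

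N-C1, which has neither the second CUT domain nor the homeodomain, kept most of the dense sites. The list held 357 of 388 (92%, interval 88.9 to 94.5), and 95.2% of all full-length peaks. Its median value at these sites was 35.4 (29.8 to 40.2), at a median percentile of 98.2 of the N-C1 list, and 37 of its 100 strongest peaks were dense sites. All 274 sites found in ∆HD were also in N-C1, and 83 of the 114 sites missing from ∆HD were. At those missing sites the N-C1 median was 10.4 (8.99 to 12.8), against 47.2 (42.1 to 50.3) at the sites that ∆HD shared. The 31 sites missing from N-C1 had a median full-length value of 8.56 and a median A/T content of 89.5%, and none was in the ∆HD list. The strongest of them were on chromosome 4 near 189779759 (22.5), on chromosome 12 with 67.9 kb to AEBP2 (22, 20 matches), and on chromosome 12 with 11.5 kb to RAB21, a small GTPase (17.7). At 84.5% A/T or more, 73.3% of the dense sites were in N-C1, against 100% under 76%.

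**Figure D3:**
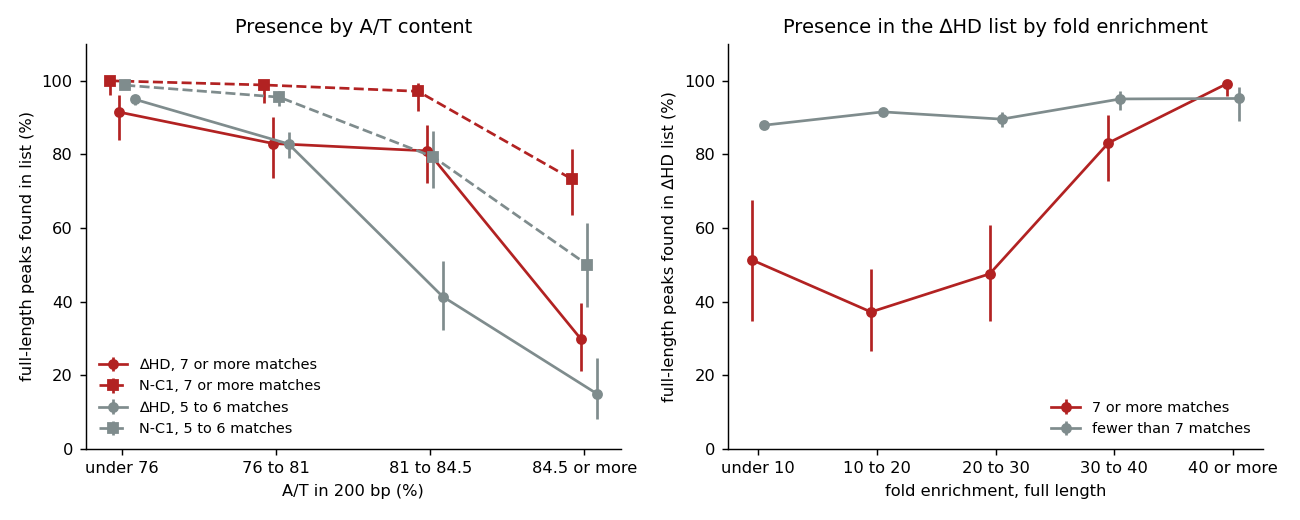
Left, share of full-length peaks found in the ∆HD and N-C1 lists by A/T content, for dense sites and for peaks with 5 to 6 matches. Right, share found in the ∆HD list by full-length fold enrichment, with 95% exact binomial intervals. The dense sites fall below the other peaks at fold enrichments under 40 and reach 99.2% at 40 or more. The right panel is not matched for A/T content.

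Every dense site was present after both topoisomerase inhibitors. The camptothecin list held 388 of 388 (interval 99.1 to 100), against 81.7% of all full-length peaks and 95.4% of those with 5 to 6 matches. The ICRF-193 list also held 388, against 92.9% of all full-length peaks and 98.6% of those with 5 to 6 matches. Median values at the sites were 30.0 (28 to 32.8) after camptothecin and 37.8 (35.3 to 40.5) after ICRF-193. Dense sites made up 76 of the 100 strongest peaks after camptothecin and 79 after ICRF-193. The gap to peaks with fewer than 7 matches depended on A/T content. The camptothecin list held 77.1% of such peaks under 76% A/T, 97.9% between 81% and 84.5% and 98.2% at 84.5% or more, and the ICRF-193 list held 90.8%, 100% and 100%. Whether strength alone gives these shares was not tested.

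When the same rule was applied to each list on its own, 396 of 24475 peaks after camptothecin (1.62%) and 419 of 37350 after ICRF-193 (1.12%) held 7 or more matches. In the construct lists these were 247 of 50537 for ∆HD (0.489%) and 363 of 62856 for N-C1 (0.578%). Nearly all of them lay in full-length peaks: 386 after camptothecin, 392 after ICRF-193, 241 for ∆HD and 358 for N-C1. ICRF-193 had the most dense peaks outside the full-length list, with 27, and N-C1 the fewest, with 5.

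A large part of the strongest dense sites were near copies of each other. The windows were aligned to each other and joined where at least 200 bp matched at 80% identity or more. This gave 9 families with 90 sites, of which the largest had 36 and 35 sites and the next 5. At 90% identity over 300 bp the largest had 31 and 22. Copy family 1 held a median of 11 matches (7 to 15) and copy family 2 a median of 8 (7 to 14), at mean A/T contents of 82.8% (SD 1.67) and 81.1% (SD 1.84). Together the families spread over 12 chromosomes.

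Their full-length values were high. Copy family 1 had a median of 50.8 in the full-length list (range 37.9 to 59.0), 27.9 in ∆HD (range 6.13 to 52.1), 59.1 in N-C1, 59.2 after camptothecin and 65.3 after ICRF-193. Copy family 2 had 47.5 (range 22.8 to 56.2), 16 (range 6.51 to 33.1), 54.9, 54.5 and 59.6. The medians of the families lay farthest apart in ∆HD, with intervals of 24.6 to 32.8 and 14 to 16.9. The ICRF-193 intervals, 63.7 to 70.2 and 56.1 to 63.4, did not overlap either. Near copies are not independent, so these intervals do not measure a difference between the families. Of the 133 dense sites with a full-length value of 40 or more, 68 belonged to these families. The other 317 dense sites had medians of 26.8 in full length (24.0 to 29.7), 13.6 in ∆HD, 25.2 in N-C1, 25.9 after camptothecin and 33.9 after ICRF-193. Only 204 of those 317 were in the ∆HD list (64.4%), against 70 of 71 family sites.

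Most sites of both families lay near relics of olfactory receptor genes. OR7E is a family of olfactory receptor genes that in human consists almost wholly of pseudogenes, and 87 of its 90 annotated genes are pseudogenes by gene type. Within 25 kb of an OR7E gene lay 53 of the 388 dense sites (13.7%, interval 10.4 to 17.5), against 0.455% of all full-length peaks. All 53 belonged to copy families 1 and 2, at a median distance of 6.43 kb. Examples were the site of 12 matches 3.82 kb from OR7E46P on chromosome 2 (full length 55.8), a site 3.98 kb from OR7E33P on chromosome 13 (53.2) and a site 4.2 kb from OR7E162P on chromosome 4 (54.6). On chromosome 8 lay 10 sites of copy family 2, with FAM90A, defensin, CTSB or LONRF1 genes as their nearest protein-coding genes.

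Of the 18 family sites farther from OR7E genes, 6 had a FOXD4-type forkhead gene as their nearest protein-coding gene, and 3 lay between APOL5 and APOL6, apolipoprotein L genes on chromosome 22. The 3 APOL sites had full-length values of 45.8, 50.5 and 51.4. XNDC1N held 2 intronic sites of copy family 2. They had 48.7 and 53.5 in full length, 16.2 and 12 in ∆HD, and 60.7 and 58.7 in N-C1.

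**Figure D4:**
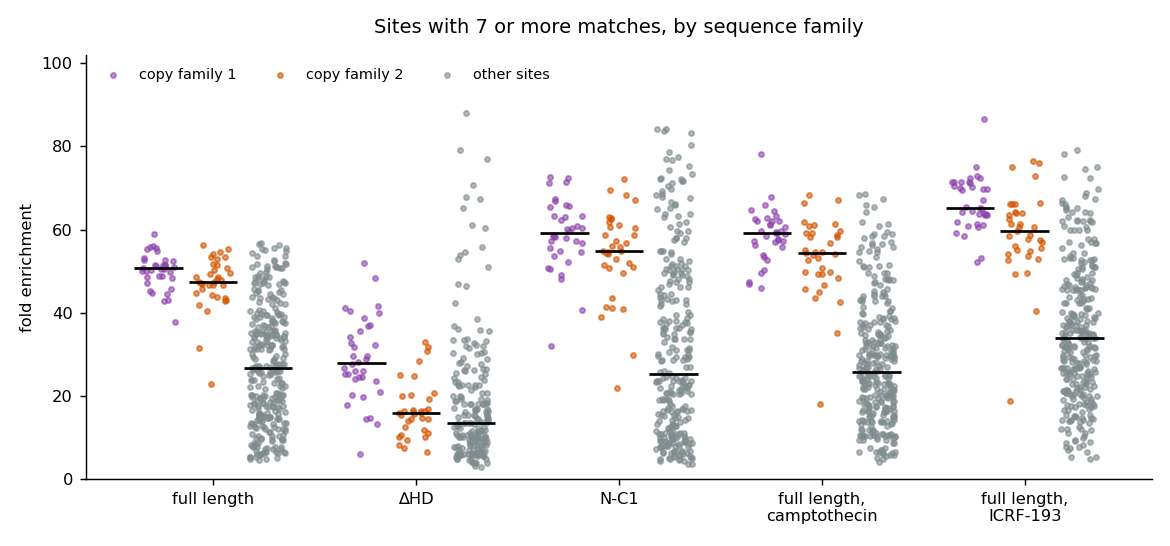
Fold enrichment of each dense site in 5 lists for copy family 1 (36 sites), copy family 2 (35 sites) and the other 317 sites, with horizontal bars at the medians. Only sites with a listed peak are drawn. The families sit in the upper range of the dense sites in each list except ∆HD, where copy family 2 has a median of 16 and the other sites 13.6.

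To see whether copies with fewer matches were listed as well, the typical member of each family was aligned to hg19 at the same limits. This search was added after the families had been seen. It found 91 copies on chromosomes 1 to 22, X and Y, 71 of them within 25 kb of an OR7E gene, and all 91 lay in a full-length peak. Dense sites of the families are full-length peaks by choice, so this overlap was set in advance for those among the copies. How many copies were not dense sites was not counted. All 12 copies with 5 to 6 matches and both with fewer than 5 lay in a full-length peak. In the full-length list, 12 copies with 5 to 6 matches around their center had a median of 46.3, 36 with 7 to 9 had 47.6, and 41 with 10 or more had 50.7. The remaining 2 copies, with fewer than 5 matches, had a median of 49.1. The full-length value thus moved little with the number of exact matches in these copies. In ∆HD the medians differed more, with 29.8 for copies of 5 to 6 matches, 16.4 for 7 to 9 and 24.5 for 10 or more. The ∆HD list missed 1 copy, and the N-C1, camptothecin and ICRF-193 lists missed none.

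Smaller families had their own places. The 5 sites of the third family all lay on chromosome 5, and SERF1B, SMN2, SERF1A and GTF2H2, genes of the duplicated region of the survival motor neuron genes, were the nearest genes of all but 1. Their full-length values ran from 31.3 to 51.8, their ∆HD values from 9.91 to 16.5, and all had fewer than 90% unique 75-base words. The fourth family had 3 sites near the ends of chromosomes 1, 15 and 19, nearest to the olfactory receptor genes OR4F5, OR4F4 and OR4F17, with full-length values of 27.7, 33.4 and 47.2.

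Copied sequence also bears on how surely reads can be placed. Fewer than 90% of the 75-base words of the window were unique at 73 of the 388 sites (18.8%, interval 15 to 23.1), against 5.16% of the other peaks. Dense sites were not alone in this. Among peaks with 0 matches, 119 of 781 had it (15.2%, 12.79 to 17.95), and that interval overlapped the one of the dense sites. The share was 5.82% at 1 to 2 matches, 4.16% at 3 to 4 and 2.75% at 5 to 6. Of the 73, 30 were in copy families 1 and 2. The study names default settings for the aligner, under which a read that matches several places equally well is put at one of them, so values at such sites may be shared among copies.

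Tandem repeats made up a small share of the dense sites. In 14 of 388 windows (3.61%, interval 1.99 to 5.98) the sequence was at least 80% identical to itself when shifted by a fixed lag, against 0.218% of the other peaks. The trait was not particular to dense sites. Among peaks with 0 matches, 46 of 781 windows had it (5.89%, 4.34 to 7.78). The lags ran from 23 to 70 bp. The array near HRAS was identical to itself at 33 bp, the site of 9 matches on chromosome 4 (189795102 to 189796341) was 98.5% identical at 65 bp, and a site in CFAP221 was 98.4% identical at 32 bp. Their full-length values were 34.7, 40.8 and 5.37. An array of 20 matches with 88.4% identity at 30 bp, in an intron of GPC6, a cell surface proteoglycan, had 55.7 in full length, 77.0 in ∆HD and 84.1 in N-C1, with all its 75-base words unique. The 14 arrays had a median full-length value of 37.9 and thus covered nearly the whole range of the class.

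Neighboring matches overlapped more often in the dense sites than elsewhere. Distances were taken between the starts of neighboring matches, 3215 pairs in the dense sites and 37641 in peaks with 2 to 6 matches. The only overlap seen was 3 bp between starts, as in the word TTATTAATAA, with 376 pairs (11.7%), against 5.62% in the other peaks. Such a pair was present in 187 of 388 sites (48.2%) and in 10.9% of peaks with 2 to 6 matches. Distances of 7 to 13 bp made up 20.8% of pairs (19.4 to 22.2) against 15%, and 14 to 20 bp 19.3% against 11.2%. Overlapping matches each counted toward the 7, and 84 of the 388 sites (21.6%) held fewer than 7 when overlaps were left out. Shorter distances are in part set by the demand for 7 matches in 400 bp, and pairs of 1 site are not independent.

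Distances of 16, 7, 13, 9 and 19 bp were also frequent, with 145, 141, 128, 116 and 103 pairs. At 19 bp, 54 of the 103 pairs lay in copy families 1 and 2 (8.44% of their 640 pairs against 1.90% of the 2575 pairs elsewhere). The family shares were also higher at 16 bp (7.97% against 3.65%), 13 bp (6.72% against 3.30%) and 7 bp (5.31% against 4.16%). At 9 bp the family share was lower (2.66% against 3.84%). Outside the families 16 bp had 94 pairs, fewer than 7 bp with 107 and 9 bp with 99. The share at 3 bp was 12% outside the families and 10.5% inside. Pairs 8 to 12 bp apart, near a helical turn, made up 12.4% of all pairs against 10.7% in the other peaks, and were absent from 192 of the 388 sites. Sites with 3 or more such pairs had a median of 24.8 (18.9 to 31.8, n = 50), those with 1 to 2 had 34.7 (31.4 to 37.7, n = 146) and those with none 31.9 (25.8 to 37.8, n = 192). The most had 11 pairs, in an intron of EFCAB11 (17 matches, 34.4), which had no ∆HD peak and an N-C1 value of 26.0. The next were in introns of IPO11, a nuclear import receptor (9 pairs, 31.8), and the site 67.9 kb from AEBP2 (9 pairs, 22), and neither had a ∆HD peak.

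**Figure D5:**
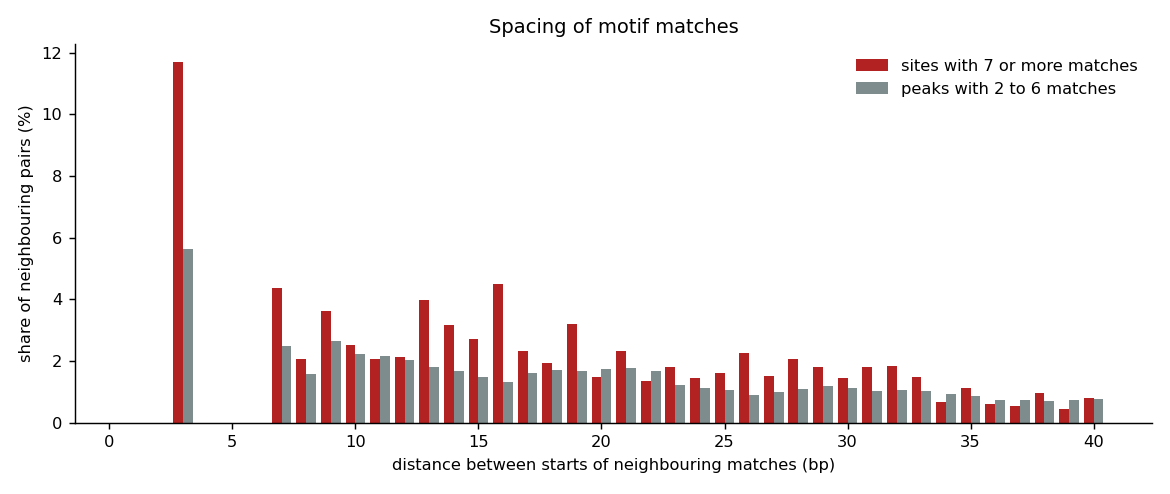
Share of neighboring pairs of matches at each distance between starts up to 40 bp, in dense sites (red, 3215 pairs) and in peaks with 2 to 6 matches (grey, 37641 pairs). The overlap at 3 bp is 11.7% in dense sites and 5.62% in the other peaks.

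The consensus words used were shifted toward pure A/T. TTATTAA and TTAATAA, the words with T first and A last, gave 63.6% of the 3603 matches in dense sites and 47.1% of the 59349 matches in the other peaks. TTATTAG gave 8.66% against 15% and CTAATAA 6.08% against 15%. The mean A/T content of the central 200 bp was 80.3% (SD 7.85) in the dense sites and 72.2% (SD 5.73) in the other peaks, a difference that the rule sets in part. Some arrays had less, such as the one near HRAS with 51.5% A/T.

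Most dense sites lay outside accessible chromatin in both ATAC-seq lists. In native cells 14 of 388 (3.61%, interval 1.99 to 5.98) overlapped an ATAC-seq peak, against 3.42% of all full-length peaks. In cells expressing Satb1 47 did (12.1%, 9.04 to 15.8), against 4.64%. The share rose with match number, from 5.0% at 7 matches to 22.4% at 10 to 12 (14 to 32.7). Of the 47, 35 had no native peak, and 2 sites had a native peak only.

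Most of these overlaps were with weak ATAC-seq peaks and lay away from the center of the site. The ATAC-seq values at the 47 sites had a median of 2.20, below the 2.93 of that list as a whole. When the 400 bp window took the place of the peak, 18 sites overlapped (4.64%, 2.77 to 7.23), against 4.59% of peaks with fewer matches. Of the 47, 30 belonged to copy families 1 and 2, where 42.3% of sites overlapped, against 5.36% (3.15 to 8.45) of the 317 other sites. Of the 47, 20 had fewer than 90% unique 75-base words. Among the dense sites, peak width, copy number and match number thus moved with this share, and their parts were not tested. The Satb1 ATAC-seq list was also the larger one, with 206170 peaks against 175989.

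Few dense sites had strong accessibility. By full-length value the first 3 with a native peak were in an intron of KDM5A, a histone demethylase (54.3; ATAC-seq 6.63 native and 4.46 with Satb1), 3.93 kb from RGCC (54.0; 8.49 and 3.99) and 72.2 kb from ADGRA3 (50.8; 2.36 and 2.01). With Satb1 the first 3 were the chromosome 9 site near FOXD4L3 (ATAC-seq 2.56), the site 4.02 kb from OR7E31P (1.90) and that 14.3 kb from OR7E105P (2.04), and none had a native peak. The highest ATAC-seq value in native cells was 27.8, at the array near HRAS, which had 13.6 with Satb1.

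Dense sites were mainly intergenic. At the summit 270 (69.6%) were intergenic, 116 (29.9%, interval 25.4 to 34.7) lay in introns, 1 in an exon and 1 at a promoter, against 37.4% introns among the other peaks. Without copy families 1 and 2 the intronic share was 35.6%, inside the range of the other classes, which ran from 33.7% to 37.8%. The exonic site lay in MACC1, a regulator of cell motility, with 22.1 in full length, no ∆HD peak, 13.7 in N-C1, 22.9 after camptothecin and 33.7 after ICRF-193. The promoter site, of 52.0% A/T and with 24.2% unique words, was 267 bp from CACNG8, a calcium channel subunit gene, with 6.43, 5.80, 6.54, 7.04 and 6.97 in the 5 lists. A total of 117 genes held at least 1 dense site.

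Genes of 500 kb or more held 30 dense sites (7.73%, interval 5.28 to 10.9), a smaller share than the 11.6% of other peaks (11.2 to 12). All 30 were among the 317 dense sites outside copy families 1 and 2. The 71 family sites thus entered the total of this share but not its count. Outside the families 30 of 317 sites lay in such genes, and this share was not compared with the other peaks. The smaller share over all dense sites is therefore not a result about the sites outside the families. Among the long genes with a dense site were GPC6, ANK2, an ankyrin (51.3), and CALN1 (51.8). Of 17 genes of the epithelial to mesenchymal transition only TWIST2 held a dense site (0.258% of dense sites, interval 0.0065 to 1.43). In these genes lay 10 other peaks (0.0445%). Of 8 ERBB receptors and their neuregulin ligands only NRG3 did (0.258% of dense sites), and 53 other peaks lay in these genes (0.236%). The NRG3 site had 15 in full length, no ∆HD peak, 11.2 in N-C1, 16.4 after camptothecin and 19.2 after ICRF-193. No dense site lay in the 10 breast identity genes, among them KRT5, TP63 and GATA3, and 9 other peaks did (0.0400%). A count of 0 of 388 allows a share of up to 0.773% by the limit of 3 counts, and the exact interval reaches 0.946%. Both limits lie above the share of the other peaks, so the count of 0 does not set the dense sites apart.

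By chromosome, chromosome 4 held most dense sites, with 47 of its 1950 peaks (2.41%, interval 1.78 to 3.19). Chromosome 11 had 28 of 926 (3.02%, 2.02 to 4.34) and chromosome 22 had 7 of 110 (6.36%, 2.60 to 12.7). The share over the whole list was 1.70%. Each of these counts includes sites of copy families 1 and 2, such as the 3 nearest to APOL genes on chromosome 22. Near copies are not independent, which the intervals leave out. Chromosome 1 had the lowest share of the chromosomes with over 1000 peaks, with 17 of 2330 (0.730%, 0.426 to 1.17). Another dense site lay within 10 kb of 25 sites (6.44%), of which 20 were in the copy families.

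Finally, dense groups of matches were counted in the genome itself. Chromosomes 1 to 22 and X held 601 separate groups of 7 or more matches within 400 bp. Of these, 519 (86.4%, interval 83.3 to 89.0) overlapped a full-length peak by at least 1 bp. Unlike the window of a dense site, a group need not be centered on a peak midpoint. The ∆HD list covered 66.2%, N-C1 81.9%, the camptothecin list 88.5% and the ICRF-193 list 91.7%, and 562 groups (93.5%) were in at least 1 of the 5 lists. Accessible peaks covered 1.83% in native cells and 3.99% with Satb1. Groups of fewer than 6 matches and the genome at large were not counted, so these shares have no background beside them. A/T content was taken here over the 400 bp at the center of each group, not over the central 200 bp. The 82 groups in no full-length peak were richer in A/T, with a median of 82.6% (77.0 to 86.8) against 75.5% (75 to 76.3). They were also more self-similar, with a median self-identity of 53.2% (47.7 to 59.5) against 41.1% (40.3 to 41.9). Of these 82, 34 lay in an ICRF-193 peak and 17 in a camptothecin peak. Fewer than 90% unique 75-base words were found at 23 of the 82 (28%, 18.7 to 39.1) and at 78 of the 519 (15%, 12.1 to 18.4).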

How the data were processed

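Per the submitters' processing notes, cutadapt was used for trimming, Bowtie2 for alignment to hg19 and MACS2 for peak calling, with broad peaks for ATAC-seq. The deposited lists hold the authors' fold enrichment, a ratio of pileup to local background, and their −log10 q-value. The smallest deposited −log10 q-value in the full-length list was 1.45. The study gives a range of reads for its ChIP-seq libraries but no number for each list, and whether duplicates were pooled is not given in the sources used here. There was 1 list per condition, so no test was run. Intervals cover the counting error of a share or the uncertainty of a median, with peaks treated as independent.

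Matches were counted in GRCh37 sequence, the build of the files. Uniqueness of 75-base words was counted over both strands of the whole genome. Genes came from GENCODE 44 lifted to GRCh37: a promoter ran from 1000 bp upstream to 100 bp downstream of a protein-coding start, then exons, introns and intergenic DNA were assigned at the summit. Shares carry exact Clopper-Pearson 95% intervals and medians order-statistic intervals. The highest value of overlapping peaks was taken. Families were joined with BLAST 2.17.0 and networkx 3.6.1, in Python 3.11.15 with numpy 2.4.6, pandas 2.3.3, scipy 1.17.1 and matplotlib 3.10.9. On simulated data, 0 of 500 windows and 0 of 3000 overlap calls were wrong. The sites and gene lists were chosen with earlier results of these data known. Named sites followed a rule: extremes of fold enrichment, match number, self-identity, 8 to 12 bp pairs and absence from or presence in each list, exons and promoters, gene lists and the largest families. Other sites named beside a family, the HRAS and GPC6 arrays or a gene list were chosen after their values were seen. Mouse lists were not used.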

Additional observations from a re-analysis of the deposited data

How the results depend on the processing

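Of 130 values under 10 alternatives for 17 results, 92 stayed inside the interval of the main value, or within 1.5 times it for the number of sites, and 38 moved. Centering on the summit or keeping peaks of fold enrichment 5 or more moved none. With 6 or more matches there were 793 sites, with medians of 20.8 in full length, 14.3 in ∆HD, 23.8 in N-C1, 21.5 after camptothecin and 28 after ICRF-193, 75.7% in ∆HD, 8.45% accessible with Satb1, 77.8% A/T, 1.89% tandem and 75.6% of genomic groups bound. With 8 or more there were 248, with medians of 37.1 in full length, 42.5 in N-C1, 36.3 after camptothecin and 45.8 after ICRF-193, 16.1% accessible with Satb1 and 81.8% A/T. Counting without overlap gave medians of 34.9 in full length, 34.5 after camptothecin and 43.3 after ICRF-193. With at least 90% unique words, 8.57% were accessible with Satb1 and 0.952% tandem. A reciprocal overlap of 50% gave 64.2% in ∆HD, 87.9% in N-C1, 98.2% after ICRF-193, and 0.515% and 0.773% accessible in native and Satb1 cells. The 400 bp window gave 4.64% accessible with Satb1, and transcripts of every type 47.9% intronic. Leaving out copy families 1 and 2, chosen after seeing the data, gave medians of 26.8, 13.6, 25.2, 25.9 and 33.9 in the 5 lists, 64.4% in ∆HD, 5.36% accessible with Satb1 and 35.6% intronic. Why values moved was not tested. Peak lists hide weak signal, and no list had a replicate. No paired analysis was possible because there was 1 list per condition and no test.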
